A study of Homo sapiens with 12 samples.

Results

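Axon guidance genes encode the secreted and membrane-bound cues, and the receptors that read them, by which growing axons and migrating neurons find their way. They were taken from a gene expression study of D283 cells, an established medulloblastoma line with amplified MYC, by gene symbol: semaphorins of classes 3 to 7, plexins, neuropilins, SLITs, ROBOs, netrins, the netrin receptors DCC, NEO1 and UNC5A to UNC5D, ephrins, Eph receptors, and the cytosolic collapsin response mediators DPYSL2 to DPYSL5 (CRMPs). The families were chosen with earlier results of these data known. The rule gave 76 protein-coding genes of the 49651 genes with values in the count table, 22423 of which had no read in any library, and 64 of them had enough reads to be tested. Messenger RNA was sequenced in 3 control libraries, from D283 cells given a scrambled construct, and in 3 libraries from D283 cells with ABL1 and ABL2, the ABL family tyrosine kinase genes, genetically inactivated. The labels give both groups the same growth medium. They do not say how the genes were inactivated, nor whether a group's libraries stem from separate cultures or from 1 clone, so a p-value here measures no more than the spread among these libraries, which may be technical.

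Semaphorins signal through plexins, for most class 3 members with a neuropilin as the binding partner, and they mostly repel axons. SLITs bind ROBO receptors and keep axons from crossing or re-crossing the midline, netrins attract through DCC and repel through UNC5 receptors, and ephrins and Eph receptors signal in both directions between touching cells. In the fly, Abl was found to act with Robo and with the actin regulator Enabled, and in mammalian cells ABL kinases bind several Eph receptors. In the cerebellum, from whose progenitors medulloblastomas arise, these cues steer granule cell axons and migration.

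Libraries held 33505903 to 49034159 counts. A level is given in CPM, counts-per-million values with TMM scaling (trimmed mean of M values), by library or as mean ± SD (n = 3), and in CPM per kilobase of summed exon length where genes are compared with each other. Log2 fold changes are inactivated over control ± SE from edgeR's quasi-likelihood test, adjusted by Benjamini-Hochberg over all 14704 genes tested. Genes with an adjusted p under 0.05 are said to have risen, fallen or changed. ABL1 mRNA was 157, 148 and 154 CPM across the controls, against 62.1, 62.3 and 61.1 CPM with both kinase genes inactivated (log2 fold change -1.31 ± 0.0426, adjusted p 5.4e-15), and ABL2 mRNA was 144, 136 and 134 CPM across the controls, against 97.6, 112 and 102 CPM with both kinase genes inactivated (log2 fold change -0.41 ± 0.0511, adjusted p 1.3e-06). No inactivated library reached the lowest control for either kinase gene.

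Most of the guidance genes with reads changed, and receptors mostly went down. Of the 64 tested, 32 fell, 19 rose and 13 did not pass, where 59.3% of all tested genes changed, 29.7% lower and 29.6% higher. Among the guidance genes 79.7% changed, 50.0% lower and 29.7% higher, the last being close to the share over all genes. Against a fold of 1.5 instead of no change, 18 were lower and 11 higher. Their median log2 fold change was -0.27, against 0.00307 over all tested genes, and -0.16 over the 56 members left by a filter of at least 1 CPM in 3 libraries. At least 2-fold changes were seen for 25 members, 15 lower and 10 higher, where 12.8% of all tested genes changed that much, 6.49% lower and 6.34% higher. Control and inactivated libraries lay fully apart for 50 of the 64 (78.1%), where the share over all tested genes was 63.2%. Among 31 receptor genes 20 fell and 5 rose (median -0.43), among 30 ligand genes 12 fell and 11 rose (median 0.0458), and all 3 CRMP genes tested rose. Because the members were chosen with earlier results of these data known, no test was run over the list. Whether receptors differed from ligands was not tested.

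**Figure D1:**
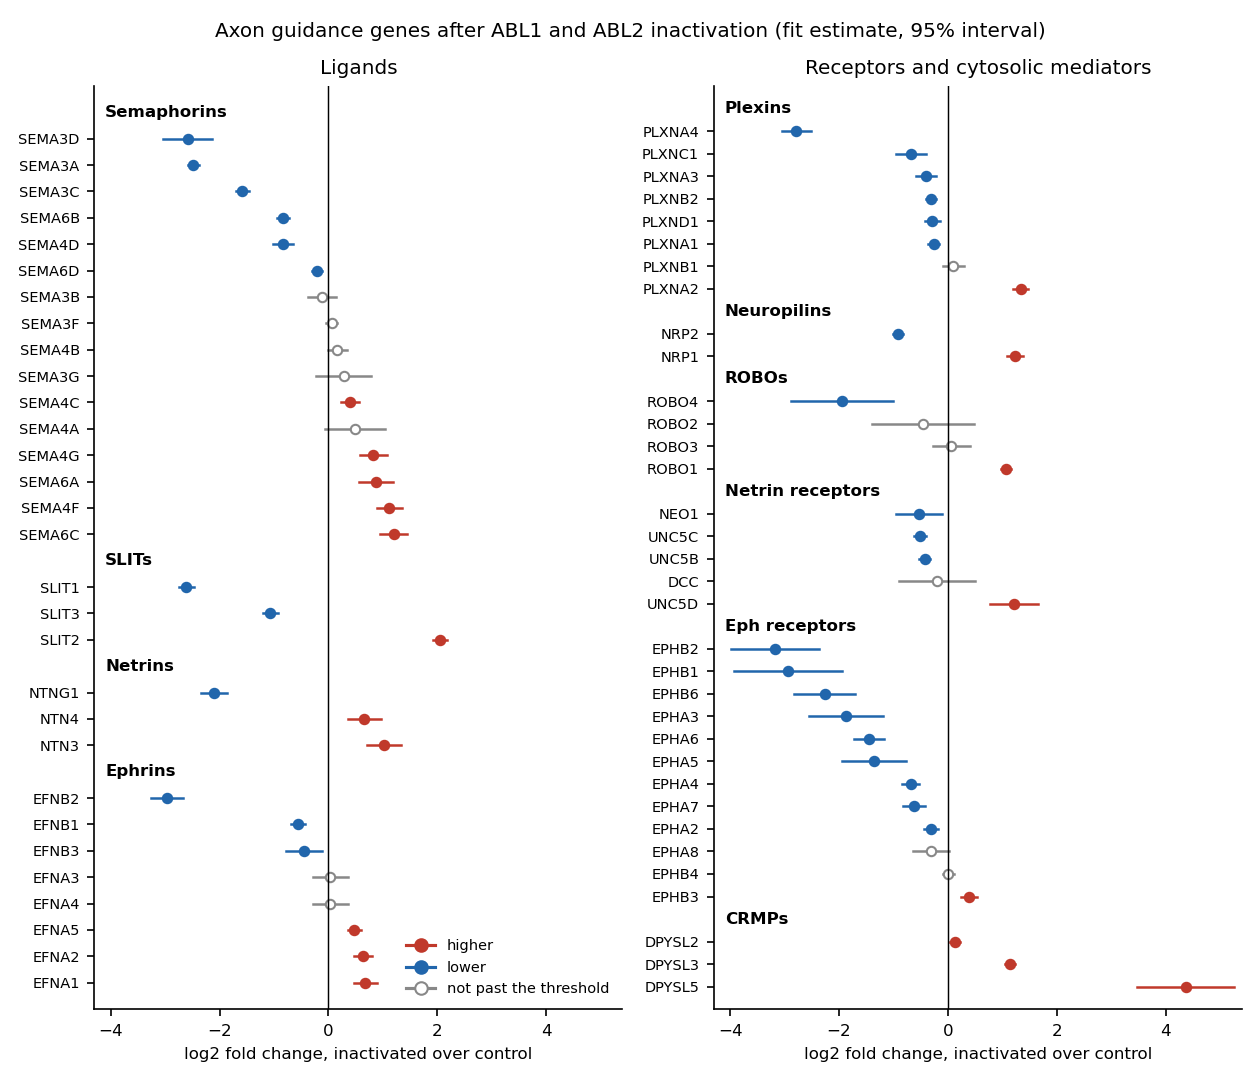
Log2 fold change (inactivated over control, x axis) of the 64 tested guidance genes, as points with 95% intervals from the fit, grouped by family. Red genes rose, blue genes fell and open grey points did not pass the threshold. Left of 0 in blue lie 9 of 12 Eph receptors and 6 of 8 plexins, where 29.7% of all tested genes fell. The 3 SLITs lie far apart on both sides.

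Markers of other cell types moved between the same groups, where 59.3% of all tested genes changed, 29.7% lower and 29.6% higher. Those with enough reads to be tested were 6 medulloblastoma, 6 neuronal, 4 glial, 7 mesenchymal, 3 epithelial, and 3 endothelial and blood cell markers. Of 8 medulloblastoma markers, OTX2, MYC, ZIC1, NEUROD1 and IMPG2 were at 5 CPM or more in both groups, while BARHL1 had no count and ZIC2 and EOMES were under 1 CPM; the 8 summed to 1472 to 1552 CPM in control and 1603 to 1669 CPM in inactivated libraries, with 2 up and 3 down. Within that sum IMPG2 rose from 66.7 ± 3.63 to 316 ± 18.4 CPM while OTX2 fell from 829.8 ± 16.1 to 666 ± 11.4 CPM. The 10 neuronal markers summed to 356 to 416 CPM in control and 189 to 194 CPM in inactivated libraries, with STMN2, ELAVL4, RBFOX3 and DCX at 0 to 6 counts per group. Most of the fall of that sum was in NEFM, from 260 ± 30.6 to 87.5 ± 2.91 CPM. All 6 neuronal markers tested changed. Besides NEFM, SNAP25 fell from 2.71 to 0.127, NEFL from 36.0 to 18.2 and SYT1 from 83.3 to 77.4 CPM on average. The 2 that rose were MAP2, from 1.61 to 3.01, and TUBB3, from 4.78 to 5.91 CPM on average. The 10 glial markers summed to 193 to 198 CPM in control and 116 to 121 CPM in inactivated libraries (3 fell, 1 rose), and GFAP, ALDH1L1, MBP and MOG had at most 3 counts per group. The 10 epithelial markers summed to 18.9 to 21.4 CPM in control and 236 to 276 CPM in inactivated libraries. Nearly all of that sum was KRT8, which rose from 18.6 ± 1.21 to 252 ± 20.1 CPM. KRT18 rose from 0.28 to 3.76 CPM on average. Among those not tested, KRT5 had 44 and 10 counts in the groups and ESRP1 8 and 30, while EPCAM, CDH1 and KRT19 had at most 4 counts per group. The 10 mesenchymal markers summed to 56.4 to 59.4 CPM in control and 48.2 to 51.9 CPM in inactivated libraries (4 fell, 2 rose, COL3A1 at 0). The 10 endothelial and blood cell markers summed to 4.72 to 5.42 CPM in control and 10.7 to 11.9 CPM in inactivated libraries, with KDR the 1 that rose and AIF1, CD3E and HBB at 0. The part of these shifts in the changes of guidance genes was not tested, and in bulk RNA fewer cells of a kind and less RNA per cell cannot be told apart.

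The stretches upstream of the SLIT genes and of the B ephrin genes EFNB1 and EFNB2 are shown because the SLIT genes changed in opposite directions and these B ephrin genes in the same one. Each is the 250 bases before the gene's annotated start, from RefSeq (GRCh38.p14), written 5′ to 3′ on the gene's strand, with GC boxes (GGGCGG on either strand) in capitals. They lie at chr10:97185960-97186209 (reverse strand), chr4:20251655-20251904 (forward), chr5:169301140-169301389 (reverse), chrX:68828771-68829020 (forward) and chr13:106535663-106535912 (reverse).
SLIT1: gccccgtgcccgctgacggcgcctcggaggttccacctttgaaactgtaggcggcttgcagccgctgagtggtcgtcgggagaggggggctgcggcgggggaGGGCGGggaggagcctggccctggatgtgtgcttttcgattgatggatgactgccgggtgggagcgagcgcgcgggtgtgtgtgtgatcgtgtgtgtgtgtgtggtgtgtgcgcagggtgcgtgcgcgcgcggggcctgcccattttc
SLIT2: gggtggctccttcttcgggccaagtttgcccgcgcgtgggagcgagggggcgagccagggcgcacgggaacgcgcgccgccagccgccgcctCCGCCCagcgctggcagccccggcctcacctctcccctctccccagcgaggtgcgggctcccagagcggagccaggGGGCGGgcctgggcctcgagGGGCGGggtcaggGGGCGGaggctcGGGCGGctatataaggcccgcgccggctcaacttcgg
SLIT3: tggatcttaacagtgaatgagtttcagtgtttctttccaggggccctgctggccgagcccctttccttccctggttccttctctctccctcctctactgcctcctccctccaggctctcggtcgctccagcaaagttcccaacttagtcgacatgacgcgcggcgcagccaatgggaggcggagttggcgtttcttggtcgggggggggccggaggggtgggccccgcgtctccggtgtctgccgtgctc
EFNB1: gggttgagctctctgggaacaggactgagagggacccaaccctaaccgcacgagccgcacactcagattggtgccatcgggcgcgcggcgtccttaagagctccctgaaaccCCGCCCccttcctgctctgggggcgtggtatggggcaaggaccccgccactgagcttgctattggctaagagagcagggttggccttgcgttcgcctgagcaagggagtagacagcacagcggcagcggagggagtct
EFNB2: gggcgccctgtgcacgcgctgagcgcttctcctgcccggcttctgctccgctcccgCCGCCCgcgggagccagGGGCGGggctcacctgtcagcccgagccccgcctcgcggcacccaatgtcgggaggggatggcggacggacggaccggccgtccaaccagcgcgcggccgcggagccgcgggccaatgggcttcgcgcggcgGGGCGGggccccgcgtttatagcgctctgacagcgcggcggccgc
The SLIT2 window, of the SLIT gene that rose, held 5 GC boxes and 30 CpG dinucleotides, that of SLIT1 1 and 25, and that of SLIT3 none and 16. EFNB1 had 1 GC box and 15 CpGs and EFNB2 3 and 40, so the B ephrin genes, which both fell, differed in both respects. The exact letters TATAAA, the 1 TATA box form searched, were found in the EFNB2 window only of these 5, and an E-box (CANNTG) likewise. Both strands were searched, and the TATAAA of EFNB2 is on the strand opposite to the gene. The SLIT2 window holds TATATAAG, a form that this search did not count. The RefSeq table, used with 1 window for each printed gene, matched 64 of the 76 genes, with 100 start windows of this length. Of these, 70.0% held a GC box, against 42.6% of 35116 windows in the table, and 50.0% held an E-box, against 61.8%. The palindromic E-box CACGTG, which is also counted as CANNTG, was in 4 of the 100 windows, against 6.34% in the table. A GC box was in 13 of 19 windows of genes that rose and in 30 of 40 windows of genes that fell. These are descriptions of letters in the windows, several genes have more than 1 window, and a match is not a binding site.

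Of the secreted class 3 semaphorins, which repel most axons and steer others, 3 of the 6 tested fell and none rose. That is 50.0% changed, all lower, where 59.3% of all tested genes changed, 29.7% lower. The 3 that fell all lie on chromosome 7, in a stretch whose genes shifted together. The 3 tested that did not pass lie on chromosome 3. SEMA3A, the founding collapsing factor for growth cones, on chromosome 7 at 83955777 to 84492725 (reverse strand), had 443, 458 and 431 CPM across the controls, against 75.2, 81.3 and 82.2 CPM with both kinase genes inactivated. Every inactivated library was below every control library, by 5.58-fold in the fit (log2 fold change -2.48 ± 0.0473, adjusted p 2.5e-18). Per kilobase SEMA3A was the most abundant semaphorin of control cells, at 51.4 ± 1.6 CPM per kilobase, ahead of SEMA6B at 29 ± 1.9. In inactivated cells SEMA6B was ahead, at 16.3 ± 1.1, followed by SEMA6D at 10.1 ± 0.355 and SEMA3A at 9.22 ± 0.441. In CPM, without division by length, SEMA6D was the highest semaphorin of inactivated cells, at 197 ± 6.91. SEMA3C, an attractant for some cortical axons, had 50.5, 52.3 and 47.9 CPM in control and 16.2, 16.7 and 17.4 CPM in inactivated libraries (log2 fold change -1.58 ± 0.0559, adjusted p 1.8e-14). SEMA3D, a guidance cue close to SEMA3A on chromosome 7, fell from 2.46 ± 0.242 to 0.401 ± 0.047 CPM (log2 fold change -2.59 ± 0.213, adjusted p 4.2e-09). SEMA3F, the main ligand of neuropilin-2, had 39.9, 37.4 and 39.3 CPM in control and 40.8, 39.8 and 41 CPM in inactivated libraries; the groups overlapped and the 95% interval of its log2 fold change ran from -0.04 to 0.16 (adjusted p 0.321). SEMA3B and SEMA3G, at means of 1.05 to 4.41 CPM in control cells, did not pass either, and SEMA3E had 1 and 3 counts in the groups. Summed over the 7 genes, the class went from 71 ± 1.71 to 22.2 ± 0.408 CPM per kilobase. Within it SEMA3A took 72.4% ± 0.594 in control cells and 41.5% ± 1.27 in inactivated cells, and SEMA3F 11.1% ± 0.575 in control cells and 37% ± 0.915 in inactivated cells.

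The membrane-bound semaphorins split by gene. SEMA6B, a transmembrane ligand of A plexins, fell with 111, 105 and 119 CPM in control and 65.2, 57.9 and 65.4 CPM in inactivated libraries (log2 fold change -0.84 ± 0.0553, adjusted p 1.8e-10). SEMA6D, which also binds PLXNA1, had 238, 228 and 217 CPM in control and 189.7, 203 and 198 CPM in inactivated libraries, a 1.15-fold decrease (log2 fold change -0.21 ± 0.0448, adjusted p 5.9e-04). SEMA4D, a ligand of PLXNB1, had 9.0, 9.99 and 10.2 CPM in control and 5.63, 5.2 and 5.61 CPM in inactivated libraries (log2 fold change -0.83 ± 0.0899, adjusted p 1.9e-07). These 3 fell without overlap between the groups. In the other direction, SEMA6C had 2.7, 2.39 and 3.28 CPM in control and 6.48, 6.63 and 5.99 CPM in inactivated libraries (log2 fold change 1.19 ± 0.122, adjusted p 8.9e-08). SEMA4F had 3.74, 3.08 and 3.64 CPM in control and 7.33, 7.52 and 7.95 CPM in inactivated libraries (log2 fold change 1.12 ± 0.106, adjusted p 2.9e-08). SEMA4C, a ligand of PLXNB2, had 12.4, 9.76 and 11 CPM in control and 14.4, 14.8 and 14.4 CPM in inactivated libraries (log2 fold change 0.40 ± 0.0805, adjusted p 3.0e-04), and SEMA4G 3.1, 3.34 and 3.79 CPM in control and 6.59, 6.05 and 5.47 CPM in inactivated libraries (log2 fold change 0.83 ± 0.117, adjusted p 5.8e-06). SEMA6A rose as well, from 1.95 ± 0.172 to 3.6 ± 0.488 CPM (log2 fold change 0.88 ± 0.148), so that 5 membrane-bound semaphorins rose, by 1.32-fold to 2.29-fold, again without overlap. Of the 6 class 4 genes tested 3 rose and 1 fell, and of the 4 class 6 genes 2 rose and 2 fell. Over all tested genes 29.6% rose and 29.7% fell, and the groups lay apart for 63.2%. SEMA4B had 9.34, 8.12 and 8.31 CPM in control and 9.87, 9.07 and 10.1 CPM in inactivated libraries and did not pass (adjusted p 0.10); with lane 1 alone (0.0425), without control replicate 1 (0.0392) or without inactivated replicate 2 (0.0395) it passed, and over 15 alternatives its adjusted p ran up to 0.618. SEMA4A, under 1 CPM in both groups, did not pass either. SEMA5B had 21 and 11 counts in the groups and was not tested, and SEMA5A and SEMA7A had none in any library, where 3 counts would be 0.0612 to 0.0895 CPM. The share of SEMA4G exons that lies under exons of MRPL43 on the opposite strand is 15.6%, that of SEMA4D under SECISBP2 8.07%; whether strand was used in counting is not given, so their reads may not all be their own.

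Plexins, the signal-transducing semaphorin receptors whose cytoplasmic part acts on small GTPases, were mostly lower by small amounts, with a large change in each direction among the A plexins. PLXNB2 was the most abundant per kilobase in both groups (20.5 ± 0.873 in control and 16.6 ± 0.169 CPM per kilobase in inactivated cells). It had 169, 158 and 171 CPM across the controls, against 133, 135 and 135 CPM with both kinase genes inactivated (log2 fold change -0.31 ± 0.0426, adjusted p 5.0e-06), a 1.24-fold decrease seen in every library. PLXNA1, a co-receptor for class 3 semaphorins, had 64.4, 57.9 and 61.3 CPM in control and 50.3, 52.5 and 50.7 CPM in inactivated libraries (log2 fold change -0.26 ± 0.0488, adjusted p 1.6e-04). PLXND1, the receptor of SEMA3E, had 32.4, 27.9 and 33.1 CPM in control and 25.7, 24.2 and 26.8 CPM in inactivated libraries (log2 fold change -0.29 ± 0.0661, adjusted p 0.00109), and PLXNA3 11.7, 13 and 13.2 CPM in control and 9.27, 10.5 and 8.71 CPM in inactivated libraries (log2 fold change -0.40 ± 0.0835, adjusted p 4.0e-04). None of these 4 decreases reached 1.5-fold, and none had overlapping groups. Of the 8 plexins tested 6 fell and 1 rose, 75.0% and 12.5%, against 29.7% and 29.6% over all tested genes. The groups lay apart for 87.5% of these plexins, against 63.2% over all tested genes. PLXNA4, which with neuropilin-1 transduces SEMA3A, had 9.51, 9.16 and 9.75 CPM across the controls, against 1.31, 1.63 and 1.08 CPM with both kinase genes inactivated. That is 6.9-fold lower (log2 fold change -2.79 ± 0.128, adjusted p 8.6e-13). PLXNA2, its close relative, was higher in every inactivated library, with 12.1, 10.4 and 11.2 CPM in control and 27.9, 28.5 and 28.9 CPM in inactivated libraries (log2 fold change 1.34 ± 0.0658, adjusted p 2.3e-12). PLXNC1, the receptor of SEMA7A, fell from 4.02 ± 0.092 to 2.51 ± 0.234 CPM (log2 fold change -0.68 ± 0.128); 3.4% of its exon length lies under CEP83 on the other strand. PLXNB1 had 17.2, 15 and 14.7 CPM in control and 16.8, 18.9 and 14.1 CPM in inactivated libraries, with overlapping groups (adjusted p 0.357), and PLXNB3 had 12 and 26 counts in the groups and was not tested.

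The neuropilins, which bind class 3 semaphorins and VEGF, moved in opposite directions. NRP1, the SEMA3A receptor, had 12.4, 10.5 and 12.3 CPM across the controls, against 26.7, 27.1 and 28.7 CPM with both kinase genes inactivated (log2 fold change 1.23 ± 0.0694, adjusted p 1.8e-11). NRP2, which prefers SEMA3F, had 76.2, 75.3 and 75.6 CPM across the controls, against 39.9, 39.2 and 41 CPM with both kinase genes inactivated (log2 fold change -0.92 ± 0.0442, adjusted p 1.6e-12). All inactivated libraries were above the controls for NRP1 and below them for NRP2. Per kilobase the NRP1 share of the pair was 29.5% ± 1.77 in control cells and 65% ± 0.523 in inactivated cells. In CPM, without division by length, NRP2 stayed ahead in inactivated cells, at 40 ± 0.887 against 27.5 ± 1.04 for NRP1. The change of order thus depends on the exon lengths, 16433 bases for NRP2 and 6070 for NRP1. The summed level of the pair went from 6.54 ± 0.193 to 6.97 ± 0.219 CPM per kilobase; without division by length it was lower in the inactivated cells, so its direction depends on the length scale.

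**Figure D2:**
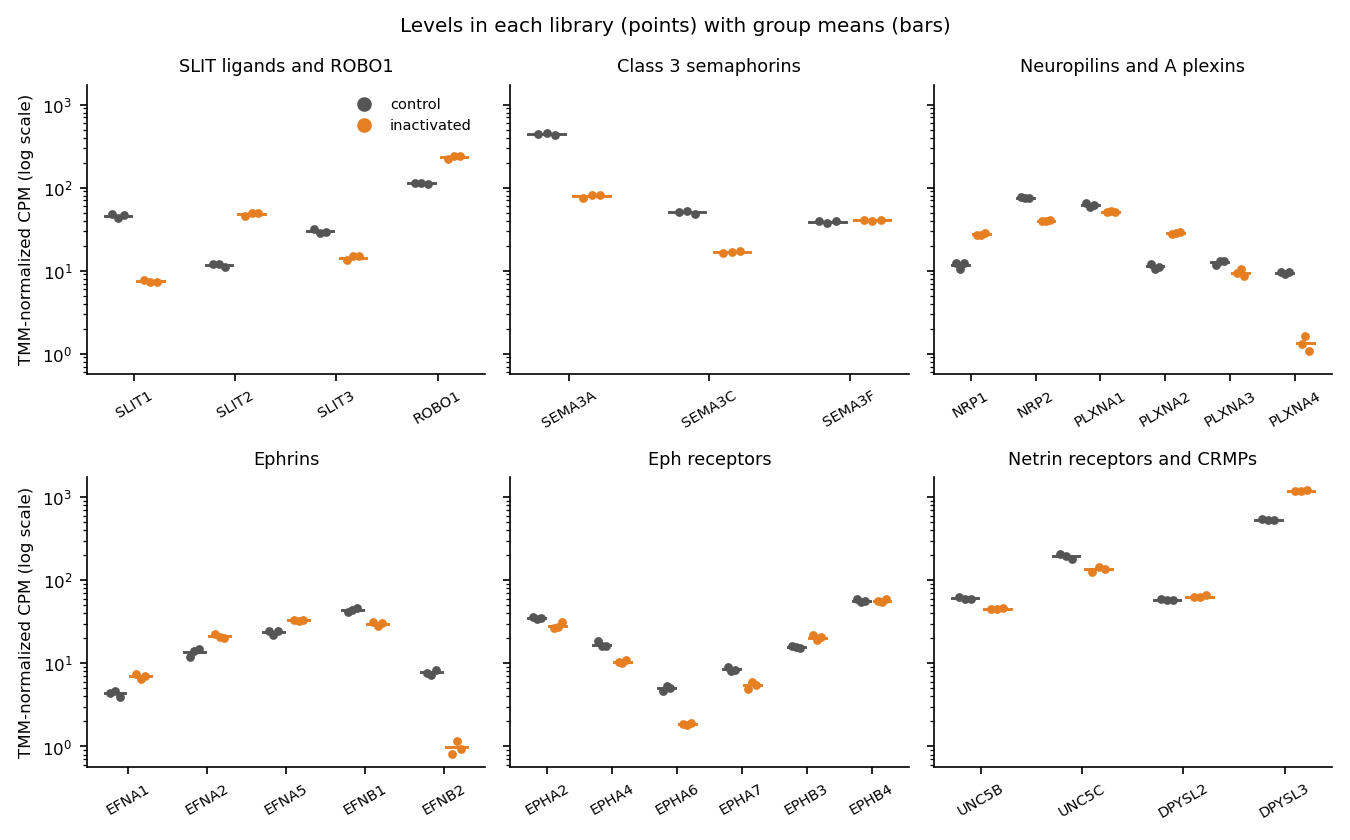
TMM-normalized CPM (y axis, log scale) of 28 guidance genes in each of the 3 control (grey) and 3 inactivated (orange) libraries, with bars at group means. SLIT1 and SLIT2, NRP1 and NRP2, and PLXNA2 and PLXNA4 shift in opposite directions, while SEMA3F and EPHB4 overlap between groups.

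The SLIT ligands reversed their order per kilobase. SLIT1, on chromosome 10 at 96998038 to 97185959 (reverse strand), had 47.9, 42.9 and 46.3 CPM across the controls, against 7.68, 7.4 and 7.34 CPM with both kinase genes inactivated, 6.12-fold lower (log2 fold change -2.61 ± 0.0647, adjusted p 1.2e-16). SLIT2, on chromosome 4 at 20251905 to 20620561 (forward strand), had 12.1, 12 and 11.1 CPM across the controls, against 45.6, 49.2 and 50.1 CPM with both kinase genes inactivated, 4.13-fold higher (log2 fold change 2.04 ± 0.0612, adjusted p 1.6e-15). SLIT3 had 32, 28.6 and 29.6 CPM across the controls, against 13.3, 14.9 and 14.9 CPM with both kinase genes inactivated (log2 fold change -1.06 ± 0.0661, adjusted p 7.1e-11). For each of the 3 genes the groups lay apart. Per kilobase SLIT1 made up 57.6% ± 0.901 in control cells and 13.2% ± 0.913 in inactivated cells of the family's level, SLIT2 11.4% ± 0.725 in control cells and 66.1% ± 0.465 in inactivated cells, and SLIT3 30.9% ± 0.406 in control cells and 20.7% ± 0.516 in inactivated cells. The family's summed level went from 9.96 ± 0.489 to 7.1 ± 0.304 CPM per kilobase, a log2 ratio of -0.49. The overlap of SLIT1 exons with the readthrough transcript ARHGAP19-SLIT1 spans 216 bases, and that entry held 57 counts over all libraries against 5630 for SLIT1.

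ROBO1, the SLIT receptor that carried over 95% of the ROBO level per kilobase in both groups, rose. Its level was 114, 114 and 109.5 CPM across the controls, against 223, 241 and 239 CPM with both kinase genes inactivated, 2.08-fold higher (log2 fold change 1.06 ± 0.0438, adjusted p 1.7e-13). The ROBO1 gene lies on chromosome 3 at 78597239 to 79767998 (reverse strand). ROBO4, known from blood vessels, fell from 0.427 ± 0.113 to 0.114 ± 0.0519 CPM (log2 fold change -1.94 ± 0.445, 44 and 13 counts in the groups). ROBO3, which in commissural neurons silences SLIT repulsion, was at 2.31 ± 0.349 and 2.4 ± 0.276 CPM and did not pass. ROBO2 had 35 and 30 counts in the groups and did not pass (adjusted p 0.398). Without inactivated replicate 2 its log2 fold change was -1.23 with an adjusted p of 0.0422, where the other alternatives reached up to 0.804.

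**Figure D3:**
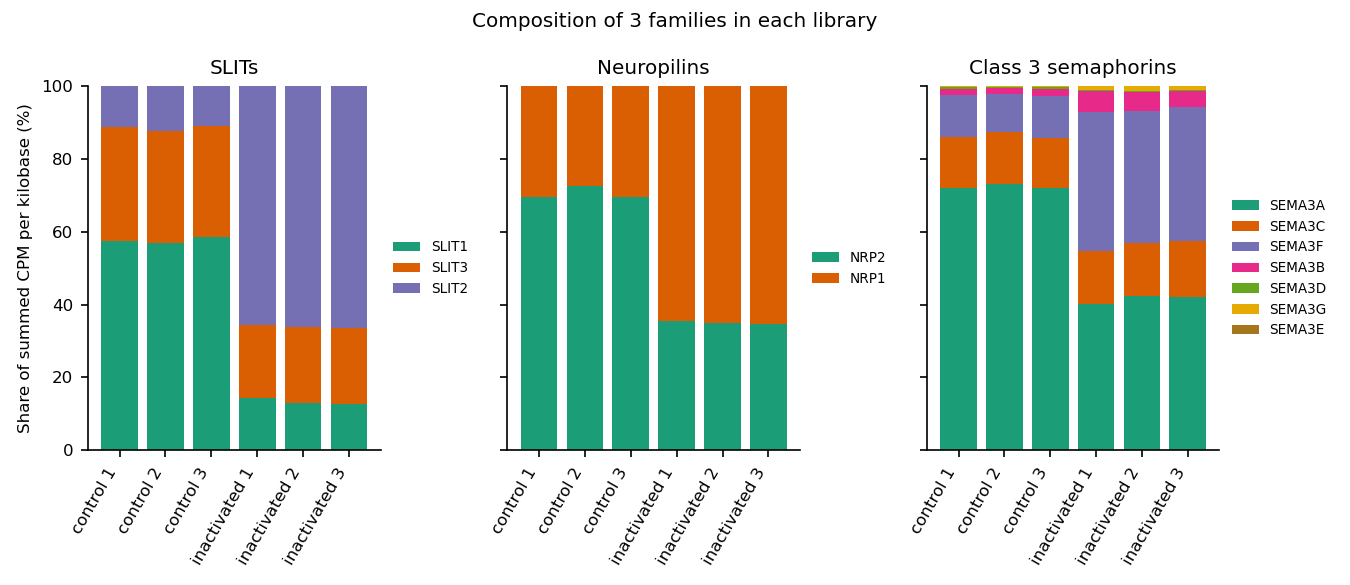
Share of each gene (percent of the family's summed CPM per kilobase, y axis) in each of the 6 libraries (x axis) for the SLITs, neuropilins and class 3 semaphorins. SLIT1 leads in the control libraries and SLIT2 in the inactivated ones, NRP2 gives way to NRP1, and SEMA3A shrinks beside SEMA3F. Without division by length NRP2 stays ahead of NRP1 in both groups.

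The netrin system was present mainly as UNC5 receptors. NTN1, the classical floor plate netrin, had 1 and 3 counts in the groups, too few for a test, NTN5 had 8 and 3 and NTNG2 13 and 20. NTNG1, netrin-G1, a membrane-anchored relative that binds an adhesion partner rather than DCC, had 10.04, 9.99 and 9.96 CPM across the controls, against 2.13, 2.68 and 2.08 CPM with both kinase genes inactivated. It was 4.29-fold lower (log2 fold change -2.10 ± 0.11, adjusted p 5.8e-12). NTN3 and NTN4, secreted netrins at under 5 CPM, rose from 1.93 ± 0.0913 to 3.96 ± 0.577 CPM and from 2.28 ± 0.278 to 3.62 ± 0.396 CPM (log2 fold changes 1.02 ± 0.148 and 0.66 ± 0.145). The summed netrin level per kilobase went from 2.45 ± 0.0903 to 2.95 ± 0.322 CPM per kilobase, and without division by length it was lower in the inactivated cells.

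UNC5C, a repulsive netrin receptor whose loss disturbs cerebellar development in mice, had 207, 196 and 181 CPM across the controls, against 126, 143 and 139 CPM with both kinase genes inactivated (log2 fold change -0.52 ± 0.0534, adjusted p 1.0e-07). UNC5B, which also acts as a dependence receptor, had 63.8, 59.96 and 60.1 CPM across the controls, against 45.3, 45.5 and 45.9 CPM with both kinase genes inactivated (log2 fold change -0.43 ± 0.0458, adjusted p 1.6e-07). Both were lower in every inactivated library, by 1.43-fold and 1.34-fold, and UNC5C held 55.8% ± 1.0 in control cells and 54.1% ± 1.67 in inactivated cells of the netrin receptor level per kilobase. UNC5D rose at a low level, from 0.813 ± 0.138 to 1.9 ± 0.266 CPM (log2 fold change 1.21 ± 0.208). UNC5A had 1 and 0 counts in the groups. DCC, the attractive receptor, was near the bottom, with 43 and 43 counts in the groups, and did not pass. NEO1, neogenin, a DCC relative that also binds repulsive guidance molecules, fell from 1.93 ± 0.333 to 1.33 ± 0.295 CPM (adjusted p 0.0302), with overlapping groups. Its adjusted p ranged from 0.00918 to 0.159 over 15 alternatives, and it no longer passed with DESeq2 (0.0652), with lane 1 (0.122) or lane 2 (0.0772) alone, or without control replicate 1 (0.159), control replicate 2 (0.0865) or inactivated replicate 3 (0.117).

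The ephrins divided by class. Of the 5 A ephrins, which are anchored to the membrane by a lipid, 3 rose and none fell, and all 3 transmembrane B ephrins fell. Over all tested genes 29.6% rose and 29.7% fell. EFNA5 had 24.4, 21.9 and 24.8 CPM across the controls, against 33.3, 32.3 and 33.2 CPM with both kinase genes inactivated (log2 fold change 0.47 ± 0.0578, adjusted p 9.7e-07). EFNA2 had 12.1, 14.3 and 15.1 CPM in control and 22.9, 20.9 and 20.4 CPM in inactivated libraries (log2 fold change 0.64 ± 0.0775, adjusted p 9.3e-07), and EFNA1 4.36, 4.69 and 3.97 CPM in control and 7.35, 6.57 and 7.01 CPM in inactivated libraries (log2 fold change 0.68 ± 0.103, adjusted p 1.3e-05). The increases were 1.39-fold to 1.6-fold, without overlap. EFNA3 and EFNA4, at 2.35 to 2.59 CPM on average, did not pass, with log2 fold changes of 0.03 ± 0.153 and 0.03 ± 0.154. EFNB2, a ligand of EPHB4 and other B receptors, had 7.65, 7.34 and 8.43 CPM across the controls, against 0.82, 1.17 and 0.935 CPM with both kinase genes inactivated, 7.84-fold lower (log2 fold change -2.97 ± 0.141, adjusted p 1.3e-12). EFNB1, the most abundant ephrin per kilobase in both groups, had 41.9, 44 and 47 CPM across the controls, against 31.6, 27.9 and 31 CPM with both kinase genes inactivated (log2 fold change -0.56 ± 0.0593, adjusted p 1.5e-07). EFNB3 fell from 4.29 ± 0.89 to 3.18 ± 0.534 CPM with overlapping groups (adjusted p 0.0189). It missed the threshold with lane 1 alone (0.0928) and when control replicate 1 (0.172), control replicate 2 (0.0630) or inactivated replicate 2 (0.0631) was left out, with adjusted p from 0.00156 to 0.172 over 15 alternatives. The summed level of the 8 ephrins was 26.7 ± 0.949 CPM per kilobase in control and 26.3 ± 1.39 in inactivated cells, with overlapping groups.

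Of the Eph receptors, the largest family of receptor tyrosine kinases, 9 of 12 tested fell and 1 rose. These are 75.0% and 8.33%, against 29.7% and 29.6% over all tested genes. EPHB4, the receptor of EFNB2, was the most abundant per kilobase and had 59.5, 54.8 and 55.8 CPM across the controls, against 57, 54.7 and 59 CPM with both kinase genes inactivated. Its groups overlapped, and the 95% interval of its log2 fold change ran from -0.10 to 0.11. EPHA2, a receptor studied in many tumours, had 35.9, 34.1 and 35.2 CPM in control and 26.9, 27.2 and 31.2 CPM in inactivated libraries (log2 fold change -0.31 ± 0.0602, adjusted p 2.2e-04). EPHA4, which binds ephrins of both classes, had 18.4, 16 and 16.1 CPM in control and 10.4, 10.2 and 11 CPM in inactivated libraries (log2 fold change -0.69 ± 0.075, adjusted p 2.2e-07). EPHA7 had 9.12, 8.09 and 8.4 CPM in control and 4.98, 6.01 and 5.52 CPM in inactivated libraries (log2 fold change -0.63 ± 0.0967, adjusted p 1.7e-05), and EPHA6 4.67, 5.36 and 5.12 CPM in control and 1.86, 1.79 and 1.9 CPM in inactivated libraries (log2 fold change -1.45 ± 0.129, adjusted p 1.3e-08). All 4 were lower in each inactivated library than in any control library. EPHB3, the 1 receptor of the family that rose, had 16.1, 15.6 and 15.3 CPM in control and 21.7, 19 and 20.8 CPM in inactivated libraries (log2 fold change 0.39 ± 0.0662, adjusted p 5.6e-05).

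A further 5 Eph genes fell from low levels, under 2 CPM in control cells for the primary entry of each. EPHB2, a receptor that ABL kinases are known to bind, fell from 0.854 ± 0.152 to 0.0919 ± 0.0403 CPM (88 and 11 counts in the groups, log2 fold change -3.17 ± 0.383). EPHB1 fell from 0.53 ± 0.0713 to 0.0688 ± 0.0591 CPM (55 and 8 counts), EPHA3 from 0.735 ± 0.0876 to 0.196 ± 0.0428 CPM (76 and 24 counts) and EPHA5 from 0.978 ± 0.157 to 0.375 ± 0.0899 CPM (101 and 46 counts). EPHB6, whose kinase is inactive, fell from 1.46 ± 0.0876 to 0.31 ± 0.0807 CPM in its primary entry. The copy of this gene on an alternate locus took 329 and 127 counts in the groups, against 151 and 36 for the primary entry. This copy fell too, from 3.18 to 1.06 CPM on average (log2 fold change -1.59 ± 0.168), and is not part of the summed Eph level. EPHA8 had non-overlapping groups but did not pass (adjusted p 0.101); without inactivated replicate 1 its log2 fold change was -0.44 with an adjusted p of 0.0319, and the other alternatives reached 0.446. EPHA1 had no count, and EPHA10 had 0 and 1 in the groups. The summed Eph level per kilobase went from 26.9 ± 1.02 to 25 ± 1.13 CPM per kilobase, and EPHB4 alone held 47.8% ± 0.272 in control cells and 51.7% ± 0.374 in inactivated cells.

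The CRMP genes, which encode cytosolic proteins that bind tubulin and relay semaphorin signals in growth cones, rose. DPYSL3 (CRMP4), on chromosome 5 at 147390808 to 147510068 (reverse strand), was the most abundant guidance gene per kilobase in both groups, at 93.6 ± 2.14 and 206 ± 3.1 CPM per kilobase. It had 552, 538 and 527 CPM across the controls, against 1179, 1178 and 1209 CPM with both kinase genes inactivated (log2 fold change 1.14 ± 0.0424, adjusted p 3.7e-14). DPYSL2 (CRMP2) had 59, 58.7 and 57.3 CPM in control and 62.4, 62.9 and 66.2 CPM in inactivated libraries, a 1.09-fold increase (log2 fold change 0.13 ± 0.0447, adjusted p 0.0185). DPYSL2 did not pass with no filter on low counts (adjusted p 0.0520), or with control replicate 3 (0.0750) or inactivated replicate 3 (0.102) left out, in a range of 0.00580 to 0.102 over 15 alternatives. DPYSL5 (CRMP5), a CRMP of immature neurons, had 7 counts in the 3 control libraries and 176 in the inactivated ones, or 0.0689 ± 0.076 and 1.46 ± 0.102 CPM (log2 fold change 4.36 ± 0.428). DPYSL4 had 9 and 31 counts in the groups and was not tested. The family's summed level went from 105 ± 2.29 to 219 ± 3.55 CPM per kilobase.

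Some members lie in stretches of chromosomes whose genes shifted together, so each was set beside its neighbours, the 20 nearest genes on either side with at least 5 CPM in a group that are not guidance genes. For 58 of 64 members the neighbours' median log2 fold change was under 0.2 in size, and of these 28 fell and 17 rose (median -0.23). These are 48.3% and 29.3%, against 29.7% and 29.6% over all tested genes. SEMA3A and SEMA3D on chromosome 7 had neighbours with a median of -0.32, 34 of 40 changed, and SEMA3C neighbours with a median of -0.61, 36 of 40 changed. The 3 genes were below these medians, by log2 differences of -2.16, -2.27 and -0.98 for SEMA3A, SEMA3D and SEMA3C. With 40 instead of 20 neighbours on each side the median beside SEMA3A and SEMA3D was -0.61. PLXNA2 on chromosome 1 rose beside neighbours with a median of 0.37, 35 of 40 changed. The part of these neighbourhoods in the members' changes was not tested. SLIT2 on chromosome 4 and EPHA7 on chromosome 6 went against theirs, whose medians were -0.26 and 0.53. With 40 neighbours on each side these medians were -0.17 and 0.50, so that of SLIT2 was then under 0.2 in size. With the neighbours' median subtracted, all 51 changed members kept their direction. With most medians under 0.2 in size, few directions could have reversed. For 19 of the 64 members the value moved by at least its SE. Some became smaller, as PLXNA1 from -0.26 to -0.15, and others larger, as EFNB1 from -0.56 to -0.62.

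**Figure D4:**
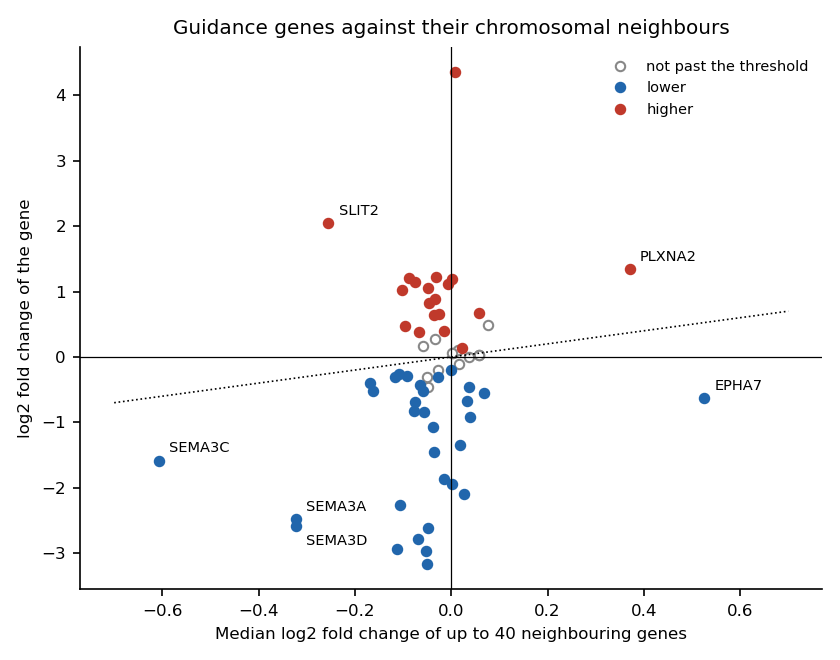
Log2 fold change of each tested guidance gene (y axis) against the median log2 fold change of up to 40 neighbouring expressed genes on its chromosome (x axis). The dotted line marks equal values; for the 6 named genes that median is 0.2 or more away from 0, and SLIT2 and EPHA7 lie on the opposite side of 0 from theirs.

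Of 52 tested genes of receptor signalling, among them GTPase regulators, kinases and actin regulators, 17 rose, 21 fell and 14 did not pass (median -0.0271); the shares of 32.7% higher and 40.4% lower compare with 29.6% and 29.7% over all tested genes. At least 2-fold changes were seen in 13.5% of the list, near the 12.8% over all tested genes. The genes named are those with the lowest p in each direction among those of at least 5 CPM in a group. CHN2, a RAC GTPase-activating protein, rose from 28.2 ± 0.455 to 64.1 ± 0.912 CPM, MICAL1, an actin oxidase that acts downstream of plexins, from 4.32 ± 0.232 to 19.6 ± 1.68 CPM, and ABI1, an ABL interactor, from 53.6 ± 1.1 to 83.4 ± 0.546 CPM. LIMK1, the cofilin kinase, fell from 34.8 ± 0.969 to 14.3 ± 0.79 CPM, MICAL2 from 59.3 ± 1.89 to 31 ± 0.411 CPM, and SRGAP3, a SLIT-ROBO GTPase-activating protein, from 12.1 ± 0.438 to 5.11 ± 0.196 CPM. LIMK1 and SRGAP3 stand among neighbours with medians of -1.08 and -0.59, and MICAL1 among neighbours with a median of 0.42. For LIMK1 the log2 fold change was -1.28 ± 0.0599, against -1.08 for its neighbours, all 40 of which changed. FES, a tyrosine kinase under that level and named after its values were seen, had 5 and 448 counts in the groups and rose from 0.048 ± 0.0155 to 3.81 ± 0.74 CPM (log2 fold change 6.19 ± 0.331).

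Of 15 other guidance cues and co-receptors tested, 8 fell and 3 rose (median -0.27), or 53.3% and 20%, against 29.7% and 29.6% over all tested genes. DRAXIN, a netrin antagonist under 5 CPM that was likewise named after its values were seen, fell from 2.86 ± 0.402 to 0.518 ± 0.155 CPM. FLRT2, a membrane protein that repels axons through UNC5 receptors, fell from 152 ± 4.57 to 30.1 ± 1.03 CPM (log2 fold change -2.33 ± 0.0468). MET, a receptor tyrosine kinase that associates with B plexins, fell from 36.2 ± 2.79 to 22.4 ± 1.24 CPM, and RTN4RL2, a Nogo receptor relative, from 8.32 ± 1.49 to 3.22 ± 0.488 CPM. LINGO1, a Nogo co-receptor, rose from 35.1 ± 3.86 to 59.6 ± 4.13 CPM, and PTK7, a planar polarity co-receptor, from 120.0 ± 6.37 to 138 ± 3.11 CPM, a log2 fold change of 0.20 ± 0.0453 beside neighbours with a median of 0.56. Of 9 genes for proteases, or their subunits, that shed or cleave guidance cues and receptors, 3 rose, 3 fell and 3 did not pass, shares of 33.3% each way that are near those of all tested genes (29.6% higher and 29.7% lower), and none changed 2-fold. ADAM10, which cuts ephrins and their receptors, fell from 170.3 ± 2.91 to 140.5 ± 5.1 CPM, as did MMP14 and the gamma-secretase subunit gene APH1A (log2 fold changes -0.42 ± 0.0515 and -0.32 ± 0.0434). ADAM17 rose from 80.4 ± 1.05 to 90.1 ± 2.69 CPM, with PSEN2 and PSENEN (log2 fold changes 0.47 ± 0.058 and 0.17 ± 0.0675). The PSENEN levels overlapped between groups, and the neighbours of PSEN2 had a median of 0.34.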

How the data were processed

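The deposited table holds raw counts per gene, library and lane, not normalized by the authors, and a column of exon lengths in bases. The submitters' processing notes list STAR 2.7.2b and featureCounts 1.6.3, then FastQC 0.11.9, MultiQC 1.11, and DESeq2 1.36.0, on build GRCh38.p14. Strand and multi-mapping settings are not given in the sources used here. Of 49677 genes, 26 whose count cells hold no value were left out. The 2 lanes of each library were summed. Genes were filtered with filterByExpr (minimum count 10, minimum total 15), scaled by TMM and tested with edgeR 4.0.16 (R 4.3.3), quasi-likelihood F test, two-sided, threshold 0.05; SEs are the log2 fold change divided by the square root of F. Counting floors (3 counts) cover counting error only. Levels per kilobase use the exon length of all isoforms together.

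Members and lists were chosen with earlier results of these data known. Members with at least 5 CPM in 1 group are given by library, and up to 3 genes per direction of each pathway list by lowest p among changed genes of at least 5 CPM in 1 group. Simulated counts over 14254 genes shared 1 dispersion, with 100 genes changed 1.5-fold and 100 changed 2-fold, all above 1 CPM in control cells. There 94.0% of the 1.5-fold and 100% of the 2-fold changes were recovered and 4.43% of calls were false. These rates were not measured for genes under 1 CPM, nor for data in which 59.3% of tested genes changed. DESeq2 1.42.0 and limma 3.58.1 (voom) were alternatives, with other scalings, filters, lanes and libraries left out.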

Additional observations from a re-analysis of the deposited data

How the results depend on the processing

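Of the 51 changed members, 48 stayed past the threshold in every one of the 15 alternatives that gave them a value (DESeq2, limma-voom, 3 scalings, 2 filters, each lane, each library left out); NEO1, EFNB3 and DPYSL2 did not, and none of the 51 changed sign. Counts of higher and lower members stayed within 1.5 times throughout, except against a fold of 1.5 as the null, where 11 were higher and 18 lower and ABL2 (-0.41) was not called. With genes of at least 1 CPM in 3 libraries alone, 56 members were tested and their median was -0.16. Less the neighbours' median, the ABL1 and ABL2 log2 fold changes were -1.24 and -0.66. Members that had not passed changed sign in some alternatives: in lane 1 alone SEMA3G (-0.13), ROBO3 (-0.14), EFNA4 (-0.0104) and EFNA3 (-0.11), in lane 2 alone EPHB4 (-0.0528), and with no filter EPHB4 (-0.00718). With 1 library left out, PLXNB1 ranged from -0.00769 to 0.20, ROBO3 from -0.0372 to 0.19, EFNA4 from -0.030 to 0.14, EFNA3 from -0.0710 to 0.13 and EPHB4 from -0.0264 to 0.0486. Summed without division by length, the log2 ratios of the neuropilins and netrins were -0.37 and -0.52, against 0.09 and 0.27 per kilobase. The cause of these changes was not tested. A filter leaves fewer genes, and a left-out library fewer libraries. Depth limits the 12 members that were not tested and those of under 1 CPM, whose intervals are wide. No replicate numbers are shared between groups in the labels, so no pairing was used.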
